A study of Mus musculus with 11 samples.

Results

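The 8 mouse genes described here, Pcsk6, Cxcl12, Pla2g7, Lrp1, Msln, Mt2, Cdk8 and Abl1, stood apart from a comparison pair in both RAS-named arrays. They are 8 of the 7114 named genes measured, and were listed by name because both RAS-named arrays, NRAS_MEL and HRAS_MEL, lay beyond a comparison pair made of D6_MEL and an array with the label Melan A. Pcsk6 and Cxcl12 lay below that pair and the other 6 above it. NRAS_MEL and HRAS_MEL are read as melanocyte lines from their names, which the markers given below do not settle. The genes were chosen by the log ratios of those 4 arrays, which are therefore given as a description, with no test. The question is where the genes lie on the 7 arrays that the choice did not use.

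RAS genes encode small GTPases that pass growth signals through the MAP kinase cascade, and NRAS is a common mutated oncogene of melanoma, the cancer of the pigment cell. The 8 genes do not form a pathway. Pcsk6, Cxcl12 and Pla2g7 encode secreted proteins, Lrp1 and Msln encode proteins of the cell surface, and Mt2, Cdk8 and Abl1 encode proteins that work inside the cell.

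Transcript levels of 11 samples were measured on 2-colour arrays, 1 array per sample, each against a mouse embryo reference RNA. The arrays used in the choice were NRAS_MEL, a line whose description adds Nras to the code shared with D6_MEL, HRAS_MEL, which has another code, then D6_MEL and Melan A, an established line of mouse melanocytes. The labels name no RAS allele, vector, strain or animal age for any of them. The arrays outside the choice were 3T3, an established fibroblast line, VA_MEF, read as an embryonic fibroblast line from its name, VA_475, whose cell type the labels do not give, and the organs Heart, Kidney, Liver and Lung. No sample had a replicate array, so the error of a single array could not be estimated. A low value cannot separate fewer cells that express a gene from less RNA per cell.

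Each value below is a log2 ratio of own RNA over reference, centred on the array's median, so 0 means the same share as in the reference and 1 unit is 2-fold. This direction is likely and not stated in the table. It was taken because Alb, the plasma protein albumin, stood at 2.54 on 1 array and at -8.22 to -6.21 on the other 10, and Sftpd, a surfactant protein of the lung, at 5.75 on 1 array and at -2.24 to -1.25 elsewhere. Were the ratios the other way round, all signs would turn. Those high arrays were the ones labelled Lung for Alb and Liver for Sftpd. Fabp3 and Nppb, genes of heart muscle, stood at 3.13 and 4.42 on the array labelled Melan A, and the array labelled Heart was nearest to D6_MEL (Pearson r of 0.922 across 7035 genes, which are not independent replicates). Mlph, a melanosome transport gene, stood at 3.06 in VA_MEF, at 2.94 on the array labelled Heart and at 3.18 in D6_MEL, against -0.06 on the array labelled Melan A. Of 18 melanocyte markers written down, 5 were measured, and the other 4 did not all follow Mlph. Ednrb stood at -3.48 in VA_MEF, -3.41 on the array labelled Heart and -2.79 in D6_MEL, against -1.17 on the array labelled Melan A, and Kit at -1.63, -1.77 and -1.09, against -1.24. Rab38 stood at 3.40, 0.31 and 0.06, against -1.38, and Rab27a at 0.71, -0.72 and -0.59, against -0.61. In NRAS_MEL and HRAS_MEL, Mlph stood at 2.55 and 2.355, Ednrb at -2.41 and -2.98 and Kit at -1.17 and -1.93. Rab38 stood there at 0.04 and -0.99, and Rab27a at -0.50 and -0.82. These markers do not settle which arrays held pigment cells. The labels Melan A, Heart, Liver and Lung went against the markers of heart, liver and lung or the nearest array. For VA_MEF, Mlph, Rab38 and Rab27a were above 0 and Ednrb and Kit below it. All 5 are used only as labels below.

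Promoter sequence is shown for the genes that lay furthest out on each side, Mt2 above and Pcsk6 below, to give the letters just before their starts. Of the 8 genes, 7 had an entry in the RefSeq promoter table (build GRCm38.p6). The 250 bases before the start were searched on both strands for the metal response element core, TGCACNC or TGCGCNC, for the AP-1 site TGANTCA and for the ETS site CCGGAAGT; AP-1 and ETS proteins are transcription factors that act downstream of RAS. Matches are in capitals, both sequences run 5′ to 3′ on the plus strand, at chr8:94172368-94172617 for Mt2 and chr7:65861886-65862135 for Pcsk6.
Mt2: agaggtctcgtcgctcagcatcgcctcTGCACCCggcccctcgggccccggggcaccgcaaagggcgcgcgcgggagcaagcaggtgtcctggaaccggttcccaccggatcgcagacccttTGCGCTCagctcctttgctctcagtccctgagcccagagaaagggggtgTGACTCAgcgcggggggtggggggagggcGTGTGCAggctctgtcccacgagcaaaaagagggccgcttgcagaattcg
Pcsk6: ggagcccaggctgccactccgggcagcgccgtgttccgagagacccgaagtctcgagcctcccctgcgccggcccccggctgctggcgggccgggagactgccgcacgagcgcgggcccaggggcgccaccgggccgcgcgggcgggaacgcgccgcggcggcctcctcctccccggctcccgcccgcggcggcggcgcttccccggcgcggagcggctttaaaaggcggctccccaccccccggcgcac
The Mt2 window held 3 metal response element matches and 1 AP-1 match, with no overlap between matches, while the Pcsk6 window held none of the 3 motifs. Among all 32851 promoter windows of that length, 21.4% held a metal response element match, 1.26% held at least 3, 6.75% held an AP-1 match and 2.88% an ETS match. Lrp1 had 1 metal response element match, and the windows of Cxcl12, Pla2g7, Cdk8 and Abl1 (which has 2 entries) had no match of the 3 motifs. A match describes letters and is not a bound site.

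Mt2 and Msln were the 2 of the 8 genes whose RAS-named arrays lay beyond all 7 arrays outside the choice, in both cases above them. That is 2 of the 6 genes chosen as higher and 0 of the 2 chosen as lower. Across 7041 genes, both RAS-named arrays lay above all 7 in 2.12% and below all 7 in 2.03%. Among genes at least 2-fold beyond the comparison pair, the shares were 50% of 18 higher genes and 25% of 24 lower genes. These sets include the 8 genes. The share among the 8 genes was thus no higher than in the sets past the same gap that hold them. For the other 6 genes at least 1 of the 7 arrays reached or passed the nearer RAS-named array. VA_475 did so for Pcsk6, Cxcl12, Lrp1, Pla2g7, Cdk8 and Abl1. Without VA_475 the count was 3 of 8, with Pla2g7 added. Without the arrays labelled Heart and VA_MEF, or without those and the arrays labelled Liver and Lung, it stayed at 2, while the count over all genes moved to 631 and 1279, against 292 with all 7 arrays.

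**Figure D1:**
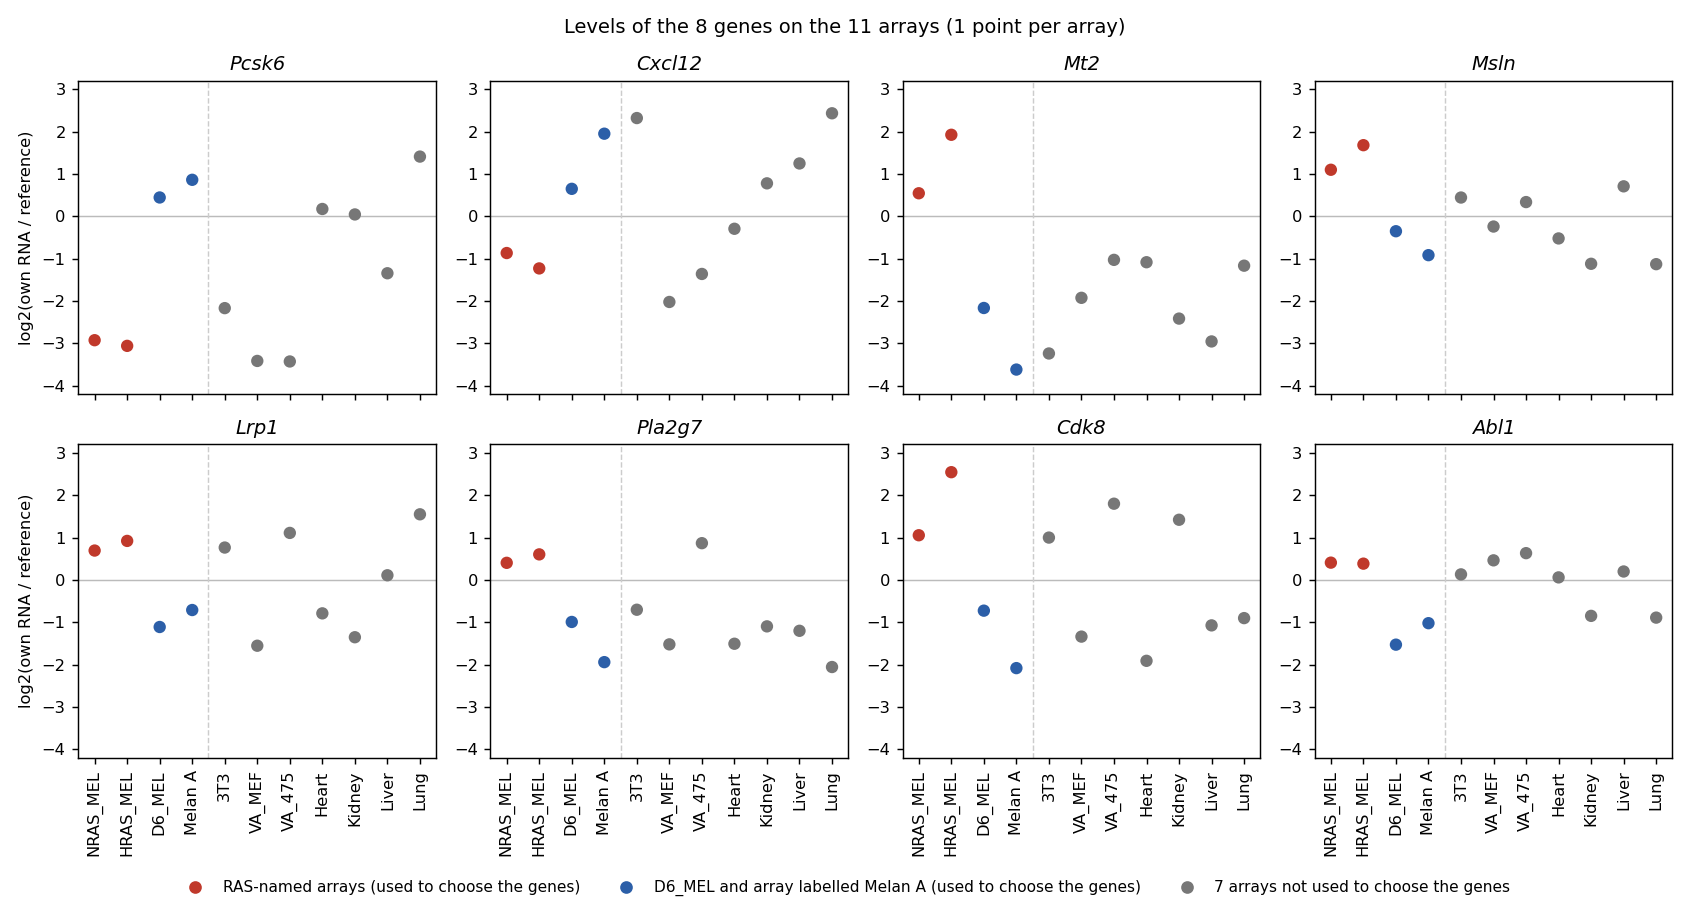
Log2 ratio of own RNA over reference (vertical axis) of the 8 genes on the 11 arrays (horizontal axis), 1 point per array and no error bar, since no sample had a replicate. Red points are NRAS_MEL and HRAS_MEL, blue points the comparison pair (D6_MEL, then Melan A by label), grey points the 7 arrays outside the choice; red lies beyond every grey point for Mt2 and Msln.

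Among the secreted proteins, Pcsk6 (also called PACE4) is a proprotein convertase, an enzyme that cuts growth factor and enzyme precursors to their active forms. Its level was -2.92 in NRAS_MEL and -3.06 in HRAS_MEL, against 0.45 in D6_MEL and 0.87 on the array labelled Melan A. The nearer RAS-named array lay below the nearer array of the comparison pair by a margin of -3.37 log2 units, first in rank among all genes that lay below. Outside the choice, the level was -2.17 in 3T3, -3.41 in VA_MEF and -3.43 in VA_475, and 0.18, 0.05, -1.34 and 1.41 on the arrays labelled Heart, Kidney, Liver and Lung. The low arrays were the RAS-named pair together with all 3 lines outside the choice, and the 4 organ-labelled arrays lay above all of these.

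Cxcl12 is a chemokine that guides migrating cells, pigment cell precursors among them, through the receptor Cxcr4. Its level was -0.86 in NRAS_MEL and -1.23 in HRAS_MEL, against 0.65 in D6_MEL and 1.96 on the array labelled Melan A. Outside the choice the level was 2.33 in 3T3, -2.02 in VA_MEF, -1.36 in VA_475, -0.29 on the array labelled Heart, 0.78 in Kidney, 1.25 on the array labelled Liver and 2.44 on the array labelled Lung. VA_MEF and VA_475 lay below both RAS-named arrays, while 3T3 and the array labelled Lung were the high end of the series. The fibroblast-named lines lay far apart, with all 4 arrays used in the choice between them.

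Pla2g7 is the secreted phospholipase that inactivates platelet-activating factor, a lipid signal of inflammation. Its level was 0.40 in NRAS_MEL and 0.60 in HRAS_MEL, against -0.99 in D6_MEL and -1.94 on the array labelled Melan A. The 7 arrays outside the choice ran from -2.06 on the array labelled Lung, with a median of -1.20, to 0.87 in VA_475. VA_475 alone of the 7 lay above the RAS-named arrays, and the next highest was 3T3, at -0.71.

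At the cell surface, Msln is mesothelin, a membrane-anchored glycoprotein of the mesothelium that several carcinomas also carry. Its level was 1.10 in NRAS_MEL and 1.68 in HRAS_MEL, against -0.35 in D6_MEL and -0.91 on the array labelled Melan A. Outside the choice it was 0.45 in 3T3, -0.24 in VA_MEF, 0.34 in VA_475, -0.52 on the array labelled Heart, -1.12 in Kidney, 0.71 on the array labelled Liver and -1.13 on the array labelled Lung. All 7 lay below both RAS-named arrays, the nearest being the array labelled Liver. The median over the 7 was 1.63 below the mean of the RAS-named pair. Of the mesothelial markers, Krt19 and Wt1 were measured, and both were below 0 in the RAS-named arrays, as on most other arrays. Krt19 stood at -1.90 in NRAS_MEL and -2.99 in HRAS_MEL, against -2.39 in D6_MEL and -2.86 on the array labelled Melan A. Wt1 stood at -1.39 and -2.32, against -1.33 and 0.02.

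Lrp1 is a large endocytic receptor that clears proteases, their inhibitors and lipoprotein remnants. It was the only gene of the 8 with several probes, 3 in all, and the mean of the probes was 0.69 in NRAS_MEL and 0.92 in HRAS_MEL, against -1.11 in D6_MEL and -0.71 on the array labelled Melan A. Outside the choice the mean ran from -1.56 in VA_MEF to 1.55 on the array labelled Lung, with a median of 0.11, and VA_475, at 1.11, and 3T3, at 0.76, also lay above NRAS_MEL. The probes differed in size on the same array: in NRAS_MEL they read -0.01, 1.61 and 0.48 (SD 0.83, n = 3 probes), and in HRAS_MEL 0.20, 1.23 and 1.33 (SD 0.62, n = 3 probes). Each probe put both RAS-named arrays above the comparison pair, by 0.79, 2.42 and 0.54. The gap of at least 2-fold was thus carried by 1 probe of 3. By comparison, the median SD between probes of a gene on an array, over 1810 genes with several probes, was 0.21 to 0.33.

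**Figure D2:**
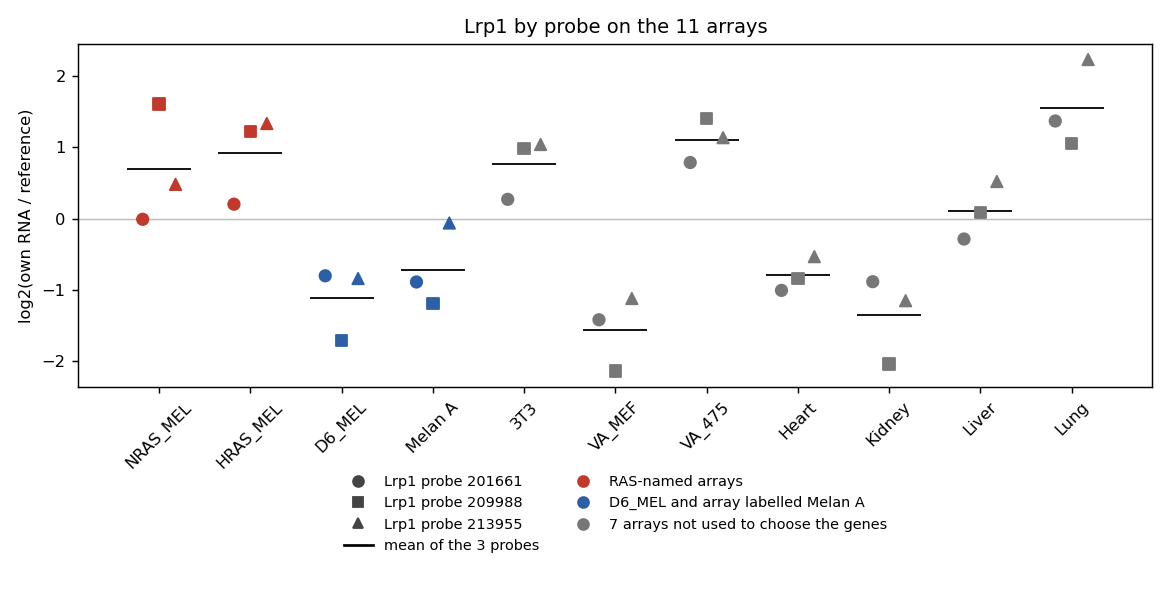
Log2 ratio of own RNA over reference (vertical axis) of the 3 Lrp1 probes on the 11 arrays (horizontal axis); symbols are probes, black bars their mean, and colours mark the RAS-named arrays, the pair they were set against and the 7 arrays outside the choice. Every probe reads above 0 in 3T3, VA_475 and the array labelled Lung and below 0 in VA_MEF and Kidney, while in NRAS_MEL the probes run from -0.01 to 1.61.

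Inside the cell, Mt2 is a metallothionein, a small cysteine-rich protein that binds zinc and copper and is induced by metals, oxidative stress and glucocorticoids. Its level was 0.55 in NRAS_MEL and 1.93 in HRAS_MEL, against -2.16 in D6_MEL and -3.62 on the array labelled Melan A, and its margin of 2.71 ranked first among genes that lay above. Outside the choice it was -3.24 in 3T3, -1.92 in VA_MEF, -1.03 in VA_475, -1.08 on the array labelled Heart, -2.41 in Kidney, -2.95 on the array labelled Liver and -1.16 on the array labelled Lung. The RAS-named arrays were the only 2 of the 11 above 0. HRAS_MEL exceeded NRAS_MEL by 1.38, the largest distance within the RAS-named pair among the 8 genes after that of Cdk8, at 1.49.

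Mt1, the neighbouring metallothionein gene, had a probe of its own. It stood at -0.46 in NRAS_MEL and 0.76 in HRAS_MEL, against -1.88 in D6_MEL and -0.81 on the array labelled Melan A, a margin of 0.35. The array labelled Heart, at -0.26, lay between the RAS-named arrays, so Mt1 did not lie beyond the 7 arrays as Mt2 did. The sequences of these genes are much alike, and how far each probe reads the other gene's transcript was not tested.

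**Figure D3:**
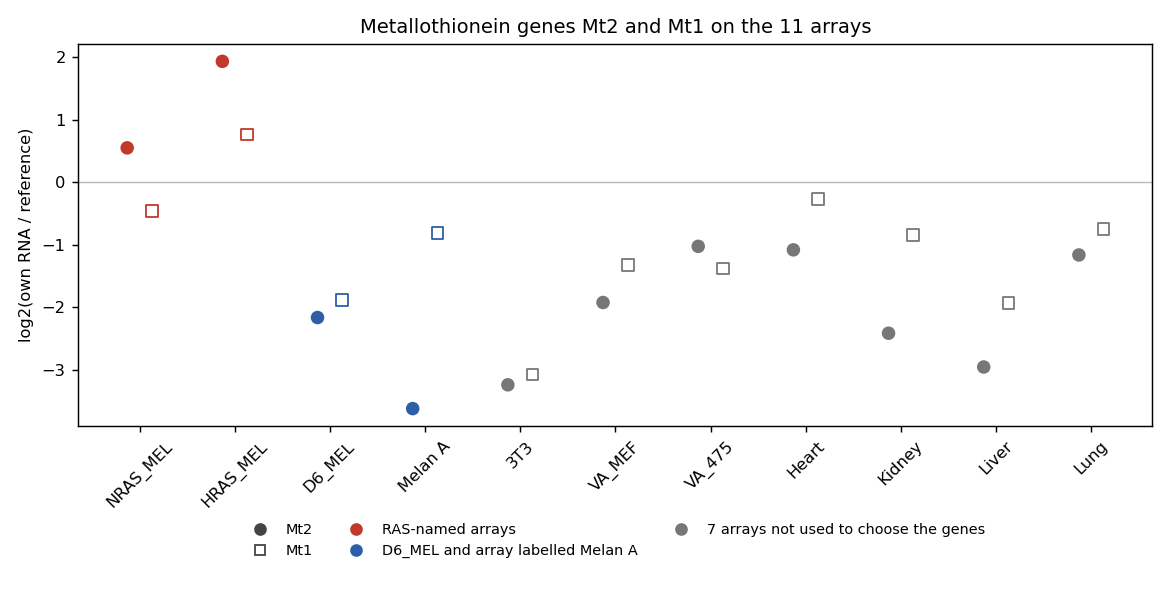
Log2 ratio of own RNA over reference (vertical axis) of Mt2 (filled circles) and Mt1 (open squares) on the 11 arrays (horizontal axis), 1 point per gene and array. For Mt2 both RAS-named arrays lie above the other 9; for Mt1 NRAS_MEL, at -0.46, lies below the array labelled Heart, at -0.26.

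Cdk8 is a kinase that joins with cyclin C (Ccnc) and Med12 and Med13 proteins in the regulatory module of Mediator, the complex that links transcription factors to RNA polymerase. Its level was 1.06 in NRAS_MEL and 2.55 in HRAS_MEL, against -0.73 in D6_MEL and -2.08 on the array labelled Melan A. The 7 arrays outside the choice ran from -1.91 on the array labelled Heart to 1.80 in VA_475, with a median of -0.90. VA_475, Kidney at 1.42 and 3T3 at 1.0 stood with NRAS_MEL, and the other 4 lay at -0.90 or lower. Abl1 is a tyrosine kinase of the cytoskeleton and nucleus, known as the partner of BCR in leukaemia. Its level was 0.41 in NRAS_MEL and 0.38 in HRAS_MEL, against -1.53 in D6_MEL and -1.02 on the array labelled Melan A. Outside the choice it ran from -0.89 on the array labelled Lung to 0.63 in VA_475, with a median of 0.13. VA_MEF, at 0.46, lay above both RAS-named arrays as well, and D6_MEL was the lowest of all 11.

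HRAS_MEL lay farther out than NRAS_MEL in 7 of the 8 genes, with Abl1 the exception at a difference of -0.02. It lay farther out in 54.3% of the other 35 genes with a gap of at least 2-fold from the comparison pair and in 48.2% of the 2475 genes with any gap. For the 6 genes other than Mt2 and Cdk8 the arrays differed by 0.02 to 0.58 in size. With 1 array each and 8 genes, this order has no replicate check, and the choice fixed that both arrays lie on the same side.

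The arrays outside the choice were then placed on either side of the midpoint between the nearer RAS-named array and the nearer array of the comparison pair, a measure chosen after seeing the values. VA_475 lay on the RAS side for 6 of the 8 genes, 3T3 for 5, the array labelled Liver for 4, VA_MEF for 3, the array labelled Heart for 2, and Kidney and the array labelled Lung for 1 each. Over all 2468 genes with any such gap and values on all 11 arrays, the shares on the RAS side were 64.4% in VA_475, 62.8% in 3T3, 52.9% on the array labelled Liver, 47.3% in VA_MEF, 33.5% on the array labelled Heart, 30.1% in Kidney and 36.8% on the array labelled Lung. Over the other 34 genes with a gap of at least 2-fold, they were 73.5% in VA_475, 70.6% in 3T3, 58.8% for Liver, 38.2% in VA_MEF, 17.6% for Heart, 8.82% in Kidney and 41.2% for Lung. The counts of the 8 genes mostly lay near the shares of other genes with a gap. For the array labelled Lung 1 of 8, or 12.5%, was below both shares. Kidney, also at 12.5%, was below the 30.1% of genes with any gap but near the 8.82% of those with a 2-fold gap. Among 8 genes each gene is 12.5%, so these distances amount to few genes. VA_475 and 3T3 held the highest shares over all genes with a gap as well.

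**Figure D4:**
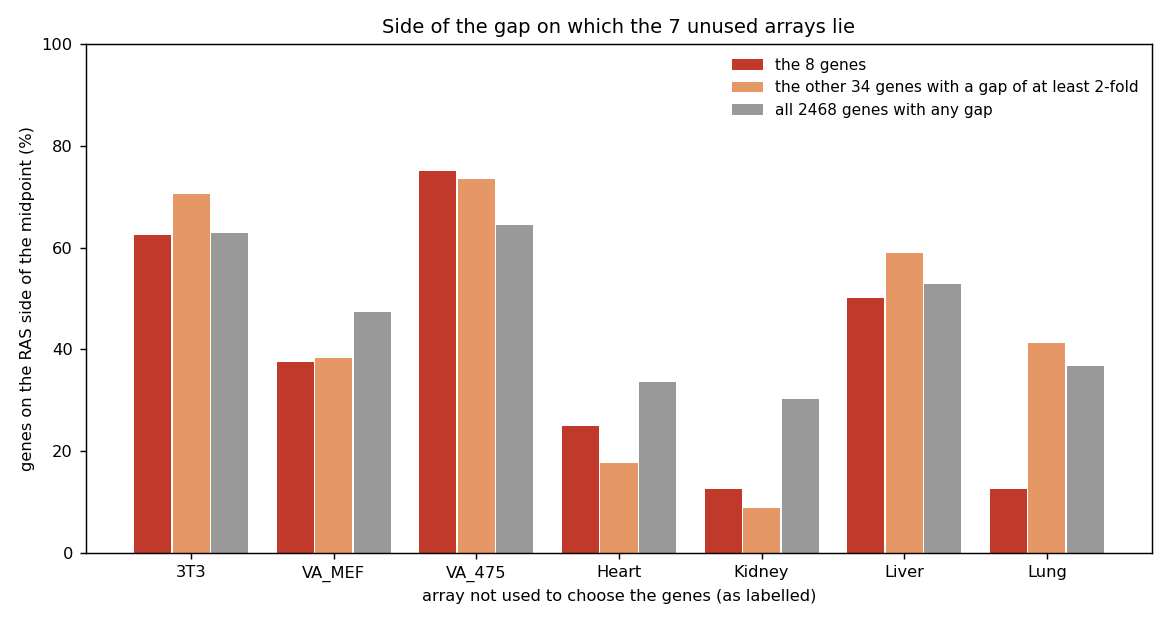
Share of genes (vertical axis, percent, from 0) that each array outside the choice (horizontal axis, as labelled) places on the RAS side of the midpoint, for the 8 genes, the other 34 genes with a gap of at least 2-fold and all 2468 genes with any gap. VA_475 and 3T3 are the highest for all 3 sets, at 75% and 62.5% for the 8 genes.

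Marker lists of other cell states are given beside this division, and their part in it was not tested. For the kidney list (2 of 9 genes measured) both RAS-named arrays lay below the comparison pair. Medians were -0.93 in NRAS_MEL and -0.73 in HRAS_MEL, against -0.65 in D6_MEL and -0.31 on the array labelled Melan A. They lay below it too for the blood list (3 of 4 genes), at -5.06 and -5.44 against -4.91 and -1.01. For the lung list, of which only Sftpd was measured, they lay above it, at -1.64 and -1.43 against -1.71 and -2.04. In the 3 lists below they did not both lie on 1 side. The proliferation list (9 of 12 genes measured) had medians of -0.52 in NRAS_MEL and -0.57 in HRAS_MEL, against 0.08 in D6_MEL and -1.99 on the array labelled Melan A, and of 0.20 in 3T3 and 0.19 in VA_475 but -2.01 in Kidney. The heart list, of which Fabp3 and Nppb were measured, had medians of -0.44 in NRAS_MEL and -0.999 in HRAS_MEL, against -0.78 in D6_MEL and 3.77 on the array labelled Melan A, and of -1.34 to 0.22 on the 7 arrays outside the choice. The fibroblast list (10 of 12 genes) ran from -1.82 in Kidney to -0.16 in 3T3, with -1.13 in VA_475. It had medians of -1.70 in NRAS_MEL and -0.74 in HRAS_MEL, against -1.47 in D6_MEL and -1.27 on the array labelled Melan A. VA_MEF, called a fibroblast line from its name alone, stood at -1.66, below D6_MEL and below the array labelled Heart, at -1.48.

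The array labelled Heart, nearest to D6_MEL and outside the choice, gave a second array to set the RAS-named pair against. Both RAS-named arrays were at least 2-fold from it in the direction of the choice for 6 of the 8 genes, 5 of the 6 higher and 1 of the 2 lower. Over 7063 genes the shares were 1.57% above and 2.31% below it. Of the 43 genes 2-fold beyond the comparison pair, the 8 genes among them, the share was 62.8%. D6_MEL, with a Pearson r of 0.922 to the array labelled Heart, was used in the choice. Agreement on the array labelled Heart was thus partly built in, and these counts are not independent support. NRAS_MEL minus that array was -3.10 for Pcsk6, 1.63 for Mt2, 1.62 for Msln, 1.48 for Lrp1, 1.91 for Pla2g7 and 2.97 for Cdk8, and HRAS_MEL minus it was farther out in each. Cxcl12 and Abl1 were the exceptions. Cxcl12 differed from the array labelled Heart by -0.57 in NRAS_MEL and -0.94 in HRAS_MEL, and Abl1 by 0.35 and 0.32.

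D6_MEL itself was at least 2-fold from the array labelled Heart in 3 of the 8 genes, Mt2 at -1.08, Cdk8 at 1.19 and Abl1 at -1.59 (D6_MEL minus that array). This held for 2.09% of 7076 genes and for 14% of the 43 genes 2-fold beyond the comparison pair. D6_MEL was used in the choice, so genes in which it stood far out were favoured by it, and nothing is read from these shares. For Mt2 and Abl1 the array labelled Heart lay on the side of the RAS-named pair from D6_MEL, and for Cdk8 on the far side.

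**Figure D5:**
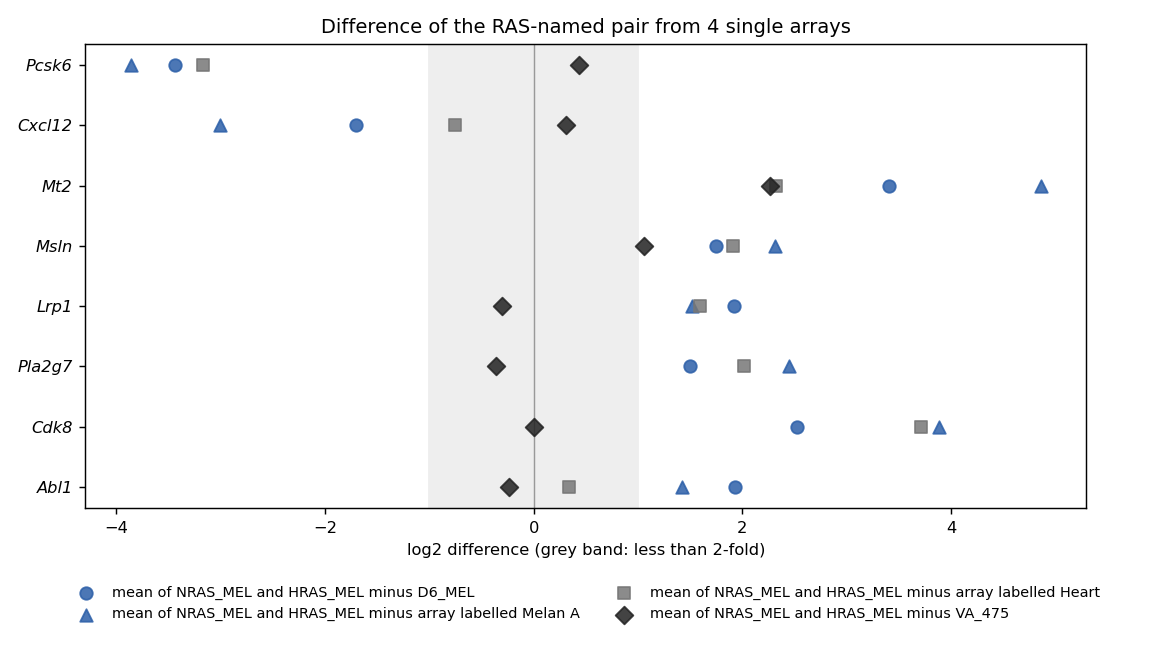
Mean of NRAS_MEL and HRAS_MEL minus each of 4 single arrays (horizontal axis, log2 units) for the 8 genes (vertical axis); blue marks are the arrays used in the choice, grey and black marks the arrays labelled Heart and VA_475, which were not. The difference from VA_475 lies within 2-fold, the grey band, for all but Mt2, at 2.26, and Msln, at 1.05.

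The classes named by the labels allowed 1 test on arrays that the choice did not use: the 2 fibroblast-named lines against the 4 organ-labelled arrays. Lines and organs stood in for replicates. The array labelled Heart is in the organ class and was nearest to D6_MEL (Pearson r of 0.922), so the test is not fully apart from the choice. For Pcsk6 that array stood at 0.18 and D6_MEL at 0.45. Limma called 0 of 7076 genes in either direction at an adjusted p under 0.05 (0% up and 0% down), and 384 up and 329 down at an unadjusted p under 0.05 (5.43% and 4.65%). Pcsk6 had the largest difference of the 8 genes. It averaged -2.79 in the fibroblast-named lines and 0.07 in the organ-labelled arrays, a difference of -2.86 ± 0.76 (SE), with an unadjusted p of 0.00818 and an adjusted p of 0.442 in limma, so it failed the threshold although the groups did not overlap. For the other 7 genes the limma adjusted p was 0.547 to 0.930, with differences from -0.89 for Cxcl12 to 0.67 for Abl1. The 95% intervals were wide, from -3.93 to 2.14 for Cxcl12 and from -2.05 to 2.94 for Cdk8, so differences of several-fold either way were not excluded by them. The number at an unadjusted p under 0.05 depended on single arrays: it was 1263 without the array labelled Heart, 343 without VA_MEF and 438 without Kidney, with 0 adjusted calls each time.

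Partner genes of the 8 were described with the same 4 arrays. A gene was counted when the RAS-named arrays both lay at least 2-fold beyond the comparison pair, which held for 0.269% of 7053 genes upward and 0.34% downward. Over 8 lists of 8 to 22 measured genes each this was met by 1 gene. It was Cbl, a ubiquitin ligase that acts on activated tyrosine kinases, 1 of the 13 genes measured in the Abl1 network. A single gene over lists of this size is not read as a result about that network. Cbl stood at -0.04 in NRAS_MEL and -0.30 in HRAS_MEL, against 1.68 in D6_MEL and 1.26 on the array labelled Melan A. On the 7 arrays outside the choice it ran from 0.04 to 1.16, all above the RAS-named pair. Over 7041 genes both RAS-named arrays lay above all 7 in 2.12% and below all 7 in 2.03%. In the lists they lay above for 1 of 12 convertase genes and 1 of 13 Abl1 network genes. They lay below for 1 of 13 Abl1 network genes and 1 of 19 metal handling genes. Nothing about the lists is read from these counts. Under quantile normalization 0 genes of these lists met the 2-fold rule, and with 1 probe per gene 2 did.

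The Abl1 network (13 genes measured) had the lowest median difference between the means of the RAS-named pair and of the comparison pair, at -0.39, beside -0.02 over all 7053 genes; it was -0.18 under quantile normalization and also with 1 probe per gene. Bcar1, an adaptor of focal adhesions, differed by 1.38, with both RAS-named arrays above the comparison pair by a margin of 0.23. Both also lay above all 7 arrays outside the choice, of which 3T3 was highest at 0.74. Grb2, which links receptors to RAS activation, differed by -0.77, but NRAS_MEL, at -0.05, and HRAS_MEL, at 0.14, lay near D6_MEL, at -0.04, and the array labelled Melan A stood apart at 1.66. The Cxcl12 list (11 genes) had a median of 0.35. For the receptor Cxcr4 the array labelled Melan A was the highest of the 11. Cxcr4 stood at -0.66 in NRAS_MEL and -0.50 in HRAS_MEL, against -0.54 in D6_MEL and 3.98 on that array. Ackr3, the scavenging receptor of Cxcl12, stood at -0.91 in NRAS_MEL and -0.41 in HRAS_MEL, against -0.56 in D6_MEL and 1.63 on the array labelled Melan A, and was highest in VA_475, at 2.44. D6_MEL thus lay with the RAS-named arrays for both receptors. That it lay apart from them for the ligand was fixed by the choice, so no contrast of ligand and receptors is read from this.

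The convertase list (12 genes) had a median of 0.19. Within it the protease Adamts1 differed by 2.47, the receptor Igf1r by 1.41 and the growth factor Bmp4 by 1.30 between the means of the pairs. For Adamts1 and Bmp4 HRAS_MEL alone, at 4.57 and 1.24, lay above the comparison pair, since NRAS_MEL, at 2.26 and -1.70, lay between D6_MEL, at 2.39 and -2.01, and the array labelled Melan A, at -0.50 and -1.04. Igf1r stood at 1.11 in NRAS_MEL and 1.90 in HRAS_MEL, against 0.63 in D6_MEL and -0.44 on the array labelled Melan A. It lay above all 7 arrays outside the choice, of which Kidney was highest at 0.87. This held for 1 of the 12 genes of the list, beside 2.12% of 7041 genes, and nothing is read from it. The metal handling list (19 genes) had a median of 0.12 (0.0033 with 1 probe per gene), with the zinc transporter Slc30a4 at 1.60, ceruloplasmin (Cp), the copper protein of plasma, at 1.57 and Mt1 at 1.50; for Slc30a4 and Cp HRAS_MEL alone lay above the comparison pair, at 2.34 and 3.33, with NRAS_MEL at 0.76 and -0.56.

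The list of Lrp1 relatives, ligands and adaptors (21 genes) had a median of -0.0036 (0.05 under quantile normalization and -0.14 with 1 probe per gene). Its largest differences were lipoprotein lipase (Lpl), at -4.18, the lipoprotein receptor Vldlr at -1.51 and the coagulation inhibitor Tfpi at -1.44, and in each the array labelled Melan A was the high one. The Mediator list (22 genes) had a median of -0.09, or -0.04 under quantile normalization. Ccnc, the cyclin of Cdk8, differed by -0.78 and Cdk19, the paralog of Cdk8, by -0.69, while Med13l, at 1.02, Med7, at 0.88, and Med6, at -0.98, were the largest; for Med6 the RAS-named arrays did not lie beyond D6_MEL. In both RAS-named arrays the cyclin and the paralog lay below the comparison pair, with margins of -0.45 and -0.12. This is the side opposite to Cdk8, whose side was fixed by the choice. A gap of any size, above or below, was found in 2475 of 7053 genes. For Ccnc the arrays labelled Heart, at -0.68, and Liver, at -0.33, lay below both RAS-named arrays. Nothing is read from these genes about the module. The phospholipase list (10 genes) had a median of 0.24 (0.12 with 1 probe per gene), with Pla2g4a, which frees arachidonic acid, at 1.09, Pafah1b3, a subunit of the intracellular enzyme that acts on platelet-activating factor, at -1.02, and Alox5ap, which serves leukotriene synthesis, at -0.68. The mesothelial list (8 genes) had a median of -0.05 (0.24 under quantile normalization and 0.05 with 1 probe per gene). Its largest differences were -1.20 for Wt1, -0.72 for Clu and 0.43 for Krt7, and for Clu and Krt7 the RAS-named arrays did not both lie beyond the comparison pair.

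The genes whose pattern over the 11 arrays was most like each member were looked up among 7035 genes with a value on all arrays, as a description in which the 4 arrays of the choice weigh heavily. For Mt2 these were Setd1b, a histone methyltransferase (Pearson r of 0.968), Fkbp5, a chaperone of steroid receptors (0.899), and Mast3 (0.850). For Pcsk6 they were the ubiquitin protease Usp4 (0.924), Pafah1b3 (0.907) and Pank3, a kinase of coenzyme A synthesis (0.903). For Cxcl12 they were the actin-associated gene Palld (0.911), Serpinb1a (0.864) and Scel (0.856). For Msln they were B9d1, Kmt2b and Chst12 (0.921 to 0.943), for Lrp1 AU044698, Ifitm3 and Asz1 (0.894 to 0.947), and for Pla2g7 Lcmt1, E330021D16Rik and Rpap1 (0.890 to 0.914). For Cdk8 they were Tenm4 (0.885), Stoml3 (0.860) and, of the 8 genes, Pla2g7 (0.845), and for Abl1 Luc7l, Unk and Atp8a1 (0.886 to 0.913). Fkbp5 followed Mt2 in the RAS-named arrays, at 1.16 in NRAS_MEL and 2.05 in HRAS_MEL, but stood at 0.70 in D6_MEL, against -1.84 on the array labelled Melan A.

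The choice had no stated threshold. Among the genes that lay above, Mt2 was first, and Cdk8, Msln, Abl1 and Lrp1 ranked 5, 7, 8 and 9. Pla2g7 ranked 10 with a margin of 1.40, followed by Fgfr1 at 1.37 and Bst2 at 1.35. The list is not the top of this ranking: Apcdd1 at 2.45 and Ecm1 at 1.88 ranked 2 and 3 and were not in it. Among those that lay below, Pcsk6 was first, Cxcl12 ranked 5 with -1.52, and Slc25a13 at -1.53 and Eif2s3x at -1.48 lay on either side of it. Cnot1 at -1.70 and Pdlim5 at -1.58 also ranked ahead of Cxcl12 and were not in the list.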

How the data were processed

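The authors deposited 1 table of log ratios of 15247 probes on 11 arrays, treated here as log2; own RNA was labelled with Cy3 and the embryo reference with Cy5, per the labels. The base of the logarithm, the direction, the background correction and the normalization were not given in the sources used here. Columns held 15170 to 15210 values with medians between -0.03 and 0.03. Signal over background is not known, and precision is limited by the number of arrays.

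Signs were turned, arrays were centred on their medians, and probes with 1 gene symbol in the platform annotation (9600, of which 9492 were found by gene number in RefSeq, with 0 symbols changed; 214 had several genes and 5433 none listed) were averaged to 7114 genes. Single arrays were compared as differences with no test. Fibroblast-named lines were compared with organ-labelled arrays in limma 3.58.1 (R 4.3.3; lmFit, eBayes, Benjamini-Hochberg over all genes, threshold 0.05; 2 fibroblast values and at least 3 organ values required). The fit was tested on simulated data with normal noise and the organ spread in both classes, and it recovered only part of the changes put in. That test does not cover the real spread between the fibroblast-named lines. Alternatives were quantile normalization, no centring, 1 probe per gene, a natural logarithm and leaving out arrays. Named genes were the 8 members, the 3 most alike genes of each, list genes counted as called or otherwise the 3 largest differences of each list, neighbours in the ranking, and markers; Ccnc and Cdk19 were added afterwards as the direct partner and the paralog of Cdk8. The members and lists were chosen with earlier results of these data known.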

Additional observations from a re-analysis of the deposited data

How the results depend on the processing

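The count of the 8 genes beyond all 7 arrays outside the choice was 2 under quantile normalization, without centring and with 1 probe per gene, and 2 to 3 when each of the 7 was left out; over all genes the main count of 292 was 329 to 479 when each was left out. The count of genes 2-fold beyond the comparison pair, 43, was 189 to 1306 with 1 of these arrays left out, fewer conditions to meet, and 159 if the logarithm was natural; the count against the array labelled Heart, 274, was then 629. With D6_MEL replaced by the array labelled Heart, 6 of the 8 genes and 54 genes in all met that rule. With 1 probe per gene 7 of the 8 met it, Lrp1 being lost. VA_475 placed 6 of the 8 genes on the RAS side under each of the 3 normalization and probe settings tried. The partner lists held 0 such genes under quantile normalization and 2 with 1 probe per gene, against 1, and the cause was not tested. The medians of 4 lists (convertase, Mediator, Abl1 and mesothelial) moved under quantile normalization by more than the spread between the RAS-named arrays, and that of the Abl1 list also with 1 probe per gene. Without the arrays labelled Heart and VA_MEF, chosen after seeing the data, the number of genes beyond the remaining 5 arrays was 631, and without Liver and Lung too it was 1279, again with fewer conditions to meet.

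For the fibroblast-named lines minus the organ-labelled arrays, limma made 0 adjusted calls in every setting run, and 343 to 1263 genes had an unadjusted p under 0.05 as each array was left out. Pcsk6 kept its sign in every setting run, from -3.49 to -2.21, with adjusted p from 0.212 to 0.864. The differences of 4 genes below the threshold turned sign as single arrays were left out: Cxcl12 ranged from -3.07 to 1.28, Lrp1 from -1.43 to 0.89, Pla2g7 from -0.0564 to 0.76 and Cdk8 from -0.72 to 1.62. Lrp1 was 0.13 under quantile normalization, and without the arrays labelled Heart and VA_MEF Lrp1 was 0.66 and Cxcl12 0.83; the cause was not tested. Leaving out 1 fibroblast-named line leaves the other assumed to vary like the organs. No paired analysis was possible because the labels number no replicates.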
